A study of Gallus gallus with 9 samples.

Results

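The proteasome genes of DF-1 cells were taken as the genes whose symbol starts with PSM, a letter from A to G and a digit. In the table of 15294 genes, 38 symbols met this rule. PSMC3IP, a protein of meiotic recombination, shares only the letters and was set apart, which left 37 genes. These code for 12 subunits of the core, 8 of the base, 7 of the lid, 3 activators or inhibitors of the core and 7 assembly chaperones. PSMB5, PSMB6, PSMC4 and PSMD8 were not among the 38 symbols and so were not analysed here. The core, base and lid are thus described without them. SEM1, a lid subunit without a PSM symbol, is given beside the lid and not counted in it. DF-1 is an immortalised line of chicken embryo fibroblasts, here with the genotype given as WT, grown in 3 states labelled 3D_L, 3D_E and 2D, with 3 libraries of polyadenylated RNA each. The 3D groups are suspended cells without carriers and 2D is the attached culture that they are set against. The labels do not spell out L and E. All libraries thus come from 1 immortalised line. Whether replicates are separate cultures is not stated, so p-values speak for the spread of these libraries alone, and that may be technical.

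The proteasome is the main protease for proteins tagged with ubiquitin. Its core is a barrel of stacked rings, in which beta subunits hold the cutting sites and alpha subunits form the gated ends. A regulatory cap binds the ends: its base holds a ring of ATPases that unfold the protein, with receptors for ubiquitin, and its lid removes the ubiquitin. Dedicated chaperones build the core and the base and leave the finished particle. These roles are known from yeast and mammals. In fibroblasts it turns over regulators of growth and division as well as damaged proteins.

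Values are FPKM as the authors deposited them, fragments scaled by transcript length and by library size, so levels can be set side by side between genes. Summed FPKM per library lay between 641334 and 738281, and read depth is unknown. A change is a difference of mean log2(FPKM + 1), given with its standard error (SE), and a gene is called changed at an adjusted p under 0.05 in limma over 10436 genes. In bulk RNA, fewer cells of a type and less RNA per cell cannot be told apart. Fibroblast markers summed to 5260 to 5314 FPKM in 3D_L, 5903 to 7126 in 3D_E and 2904 to 3602 in 2D, with 14 of 15 above 1 FPKM on average and PDGFRA at or under 0.25 in every library. They did not move as one: of the 14 tested, 8 rose and 4 fell in 3D_L, and 7 rose and 2 fell in 3D_E, against 2D. That is 85.7% and 64.3% called, beside 36.4% and 68.2% of all genes. The 8 blood and immune markers in the table summed to 8.38 to 9.34 FPKM in 3D_L, 8.62 to 14.7 in 3D_E and 8.89 to 10.5 in 2D, most of it CD3E, with PTPRC at 0.69 or less in every library. The 7 epithelial markers summed to 1.72 to 2.37 FPKM in 3D_L, 1.12 to 3.03 in 3D_E and 5.67 to 6 in 2D, with EPCAM and CDH1 at 0.05 or less, and the 2 that could be tested, KRT7 and GRHL2, were lower in both 3D groups than in 2D. The 5 muscle markers summed to 0.7 FPKM or less in every library. The part of these lists in the proteasome values was not tested. The 7 endothelial markers summed to 129 to 157 FPKM in 3D_L, 54.0 to 87.9 in 3D_E and 125 to 137 in 2D. Of these, ERG alone reached 104 to 133 FPKM in 3D_L, 38.6 to 70.3 in 3D_E and 116 to 128 in 2D. Of the 4 endothelial markers tested, 3 rose and none fell in 3D_L, and 2 rose and 2 fell in 3D_E, against 2D. That is 75% and 100% called. The part of ERG and the other endothelial markers in the proteasome values was not tested. The 3D_E libraries spread most: the root mean square SD of the proteasome genes on the log2 scale was 0.12 in 3D_L, 0.19 in 3D_E and 0.06 in 2D, against 0.16, 0.29 and 0.12 over all genes tested.

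All 37 proteasome genes were expressed in every group. PSMA7, an alpha subunit, had the highest mean level, 928 ± 90.3 FPKM in 3D_L, 815 ± 17.0 in 3D_E and 766 ± 19.2 in 2D (SD, n = 3 each). Next by mean level over the 9 libraries came the beta subunits PSMB3 and PSMB4 and the lid subunits PSMD7 and PSMD3. At the other end were PSME4, a large activator of the core, at 10.1 ± 0.612 FPKM in 3D_L, 15.04 ± 4.03 in 3D_E and 9.47 ± 0.755 in 2D, and the chaperones PSMG1, PSMD5, PSMG4 and PSMG3. Together the 37 genes held 1.44%, 1.46% and 1.498% of the summed FPKM in the 3D_L libraries, 1.41%, 1.34% and 1.27% in the 3D_E libraries and 1.27%, 1.29% and 1.28% in the 2D libraries. The 3D_L libraries lay above both other groups, and 3D_E overlapped 2D. The classes moved apart within that sum. Core genes held 0.757% to 0.826% in 3D_L, 0.705% to 0.755% in 3D_E and 0.650% to 0.658% in 2D, so both 3D groups lay above 2D. Such a sum weighs the genes with high levels most. The mean core sum was 5067 FPKM in 3D_E and 4573 in 2D, and PSMB4 alone averaged 759 and 487. Over the 12 core genes the median log2 change in 3D_E against 2D was 0.08, with 1 rise and 1 fall called. That is 16.7% of them, beside 68.2% of all genes. Assembly chaperones held 0.0544% to 0.0584% in 3D_L, 0.0483% to 0.0564% in 3D_E and 0.0626% to 0.0659% in 2D, so both 3D groups lay below 2D. The base and lid were highest in 3D_L, at 0.265% to 0.278% and 0.317% to 0.321%, while their 3D_E values, 0.236% to 0.253% and 0.253% to 0.313%, overlapped those of 2D, 0.232% to 0.244% and 0.286% to 0.290%. Ribosomal protein genes, which take a large part of every library, held 21.1% to 23.3% in 3D_L, 20.5% to 26.4% in 3D_E and 24.2% to 24.7% in 2D, and their part in these shares was not tested. A share also depends on the library total, 645027 to 710985 FPKM in 3D_L, 641334 to 738281 in 3D_E and 688587 to 708979 in 2D. The lid genes themselves summed to 2069 to 2260 FPKM in 3D_L, 1870 to 2007 in 3D_E and 1999 to 2047 in 2D.

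**Figure D1:**
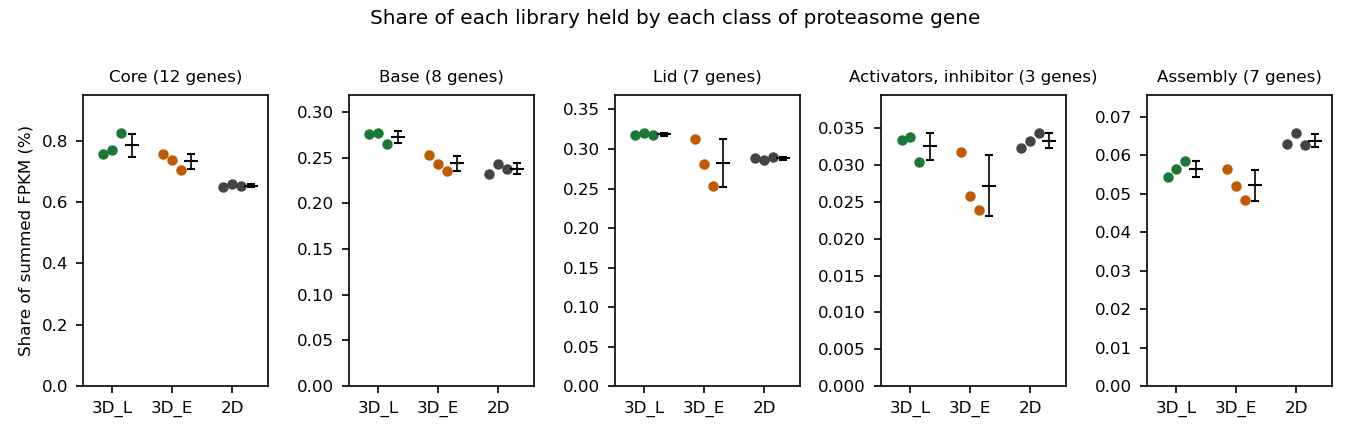
Share of summed FPKM (%) held by the genes of each proteasome class in each library, by group. Points are libraries and the bar beside them is mean ± SD (n = 3). The core share is higher and the assembly share lower in both 3D groups than in 2D, and the lid share of 3D_E runs from 0.253% to 0.313%.

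Against 2D, 4 proteasome genes rose and 4 fell in 3D_L, so 21.6% of the 37 were called, against 36.4% of all genes tested (20.3% higher and 16.2% lower). In 3D_E against 2D, 5 rose and 12 fell, which is 45.9% against 68.2% of all genes (36.1% higher and 32.1% lower). In 3D_L against 3D_E, 12 rose and 2 fell, which is 37.8% against 53.6% of all genes (27.2% higher and 26.4% lower). The called share of the proteasome genes was thus below that of all genes in each comparison. With quantile normalization this turned in 3D_L against 2D, where 12 rose and 3 fell, which is 40.5% of the 37 against 34.3% of all genes (15.4% higher and 18.9% lower), and it did not turn there under the other 18 alternatives or in the other comparisons under any of the 19. Falls made up more of the calls in 3D_E against 2D and rises more of those in 3D_L against 3D_E. The median log2 change of the 37 was 0.10 in 3D_L against 2D, -0.03 in 3D_E against 2D and 0.16 in 3D_L against 3D_E, beside 0.03, 0.05 and -0.005 over all genes. None of the 37 changed by 1 or more on the log2 scale in any of the 3 comparisons, while 635, 2437 and 1173 of the 10436 genes did. The largest change was that of PSMG3 in 3D_E against 2D, -0.88. The 3 comparisons share libraries, so their values are set side by side below and not counted as separate evidence.

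The number of rises in 3D_L against 2D depended on single libraries. It was 10 without replicate 1 of 3D_E and 8 without replicate 3 of 3D_E, which enter the fit through its shared spread, and 2 without any 1 of the other 7 libraries. The falls numbered 2 without replicate 1 or 2 of 3D_L or replicate 2 of 2D. In 3D_E against 2D, 9 genes rose without replicate 1 of 3D_E, and 8 fell without replicate 2 or 3 of 3D_E or any 2D library, against 12 with all of them. In 3D_L against 3D_E the rises numbered 7 without replicate 2 of 3D_L and 6 without replicate 2 of 3D_E. The falls there numbered 6 without replicate 1 of 3D_E and 1 without replicate 1 or 2 of 3D_L or replicate 2 or 3 of 3D_E. The calls of 4 genes in 3D_L against 2D, of 13 genes in 3D_E against 2D and of 6 genes in 3D_L against 3D_E held under all 19 alternatives run, and no called gene changed sign under them. Of the proteasome genes not called, 12 of 29 in 3D_L against 2D were called under 1 or more alternatives. Such genes numbered 14 of 20 in 3D_E against 2D and 15 of 23 in 3D_L against 3D_E. The same count over all genes was not made.

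**Figure D2:**
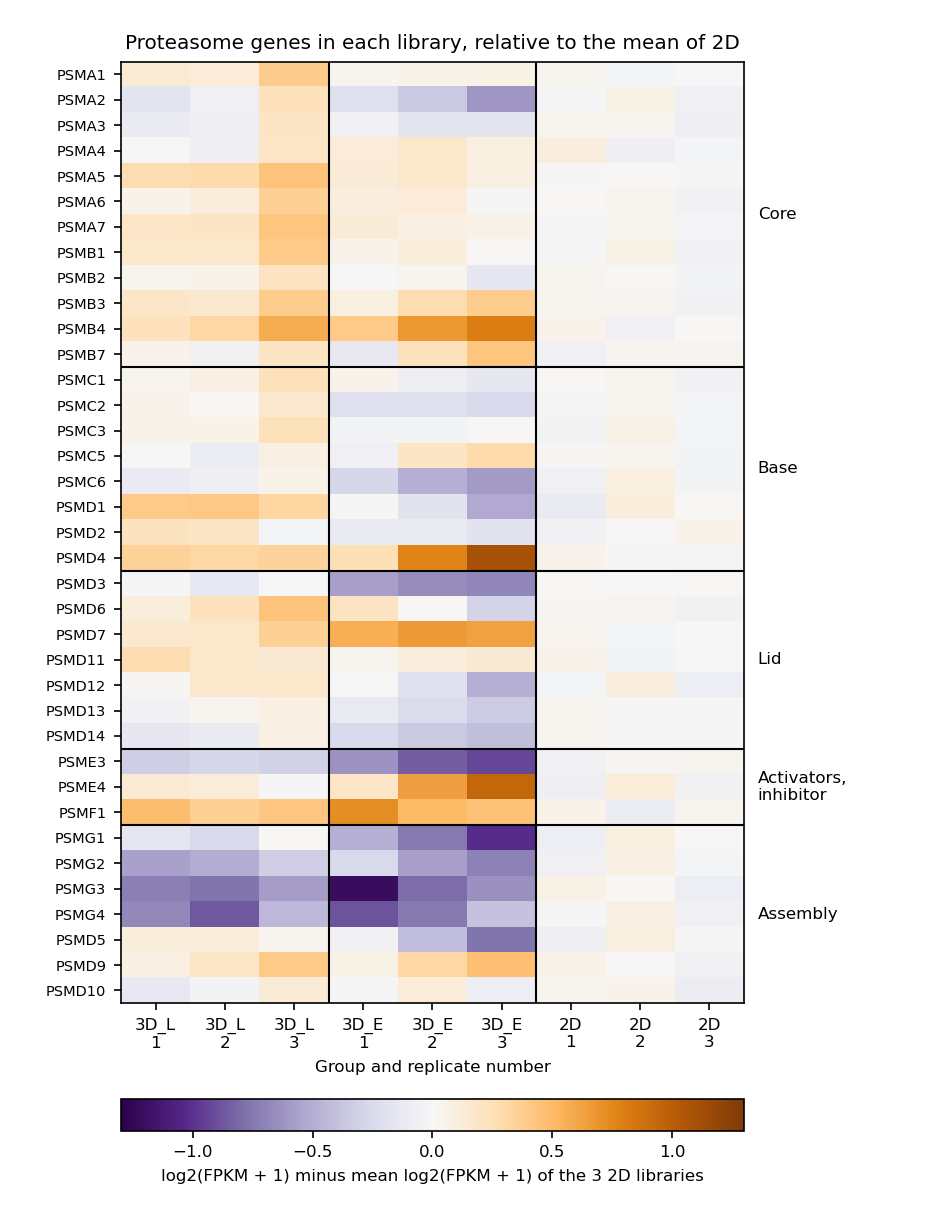
Difference of log2(FPKM + 1) from the mean of the 3 2D libraries for each of the 37 proteasome genes (rows, by class) in each library (columns, by group). Orange is above and purple below the 2D mean: PSMG2, PSMG3 and PSMG4 are purple in all 6 3D libraries, PSMF1 and PSMB4 are orange in all 6, and PSMD3 is purple and PSMD7 orange in the 3 3D_E libraries.

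**Figure D3:**
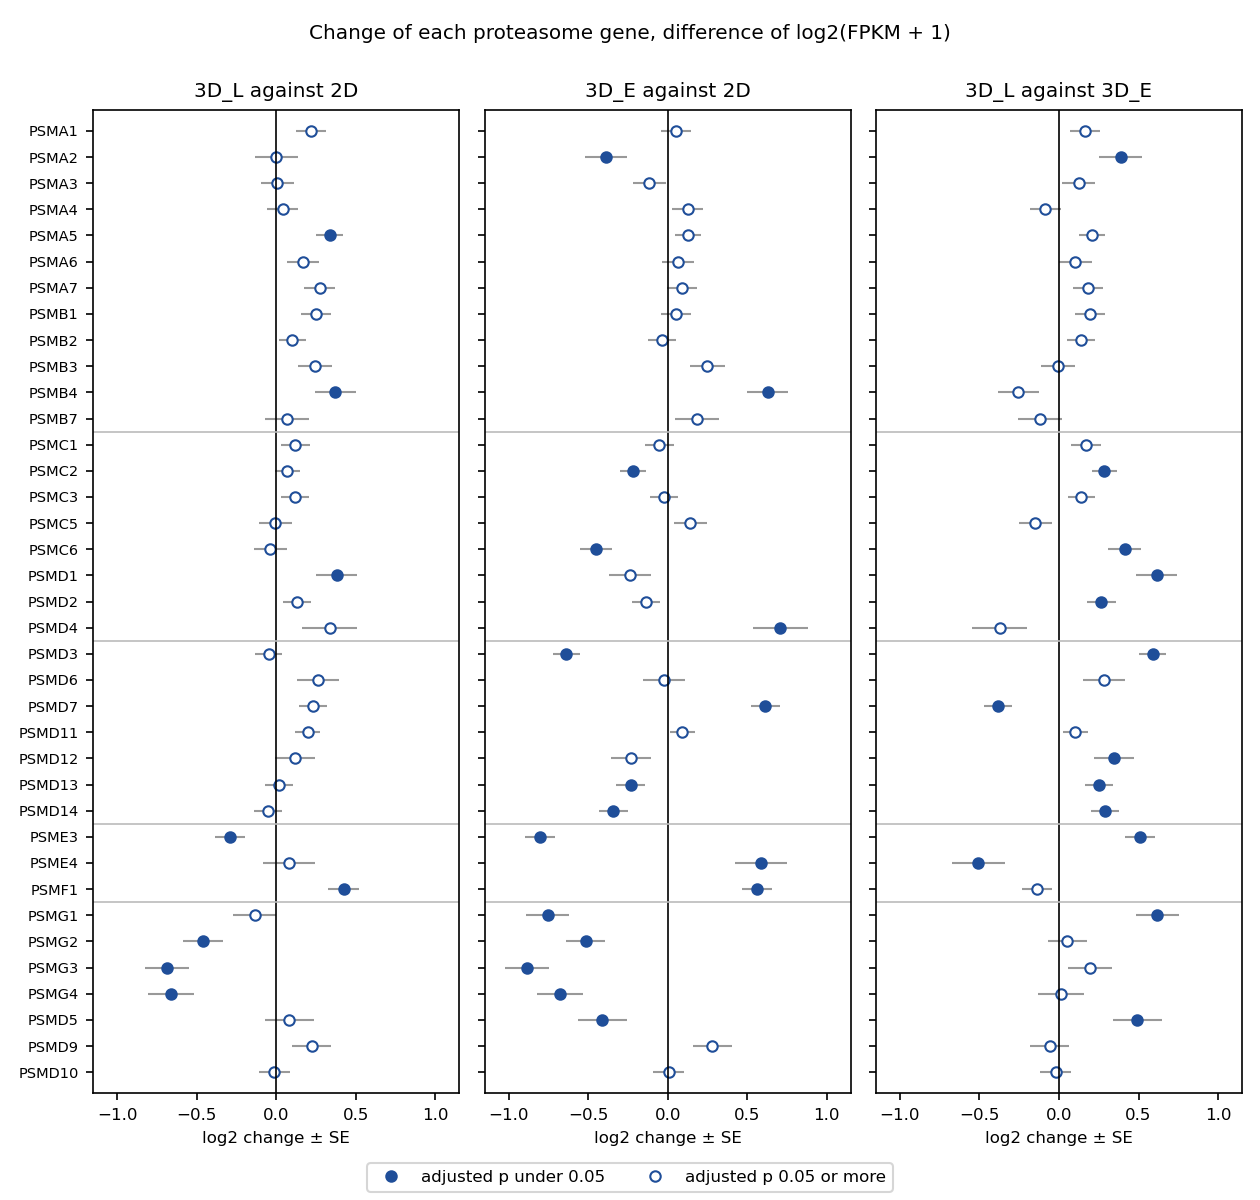
log2 change ± SE of each proteasome gene in the 3 comparisons (differences of log2(FPKM + 1)), ordered by core, base, lid, activators with inhibitor, and assembly. Filled points have an adjusted p under 0.05. The chaperones PSMG1 to PSMG4 lie left of 0 in 3D_E against 2D, between -0.88 and -0.51.

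Few core genes were called. Of the 12, 2 rose and none fell in 3D_L against 2D (median log2 change 0.19), 1 rose and 1 fell in 3D_E against 2D (0.08), and 1 rose and none fell in 3D_L against 3D_E (0.13). That is 16.7%, 16.7% and 8.33% called, beside 36.4%, 68.2% and 53.6% of all genes. PSMA5 (NCBI gene 426937), an alpha subunit, had 316, 317 and 353 FPKM in the 3D_L libraries, 283, 293 and 275 in the 3D_E libraries and 257, 261 and 262 in the 2D libraries. The 3 groups did not overlap, and PSMA5 rose in 3D_L against 2D by 0.34 ± 0.08 (adjusted p = 0.0113), while 3D_E against 2D gave 0.13 ± 0.08 (adjusted p = 0.198). PSMA2 (NCBI gene 420772), another alpha subunit, had 270.4, 292 and 357 FPKM in the 3D_L libraries, 265, 238 and 198 in the 3D_E libraries and 302, 318 and 293 in the 2D libraries. All 3D_E libraries lay below all 2D libraries, and PSMA2 fell in 3D_E against 2D by 0.39 ± 0.13 (adjusted p = 0.0265) and was higher in 3D_L than in 3D_E by 0.39 ± 0.13 (adjusted p = 0.034). Neither PSMA2 call was firm. The fall was lost without replicate 2 or 3 of 3D_E or any 2D library (adjusted p 0.0521 to 0.0844), and the difference between the 3D groups was lost without replicate 2 or 3 of 3D_L, replicate 2 or 3 of 3D_E or any 2D library (adjusted p 0.0509 to 0.109).

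Of the 5 beta subunits, PSMB4, which has no cutting site of its own, rose in both 3D groups. It had 572, 605 and 725 FPKM in the 3D_L libraries, 645, 779 and 851 in the 3D_E libraries and 504, 468 and 489.6 in the 2D libraries. Every 3D library lay above every 2D library, and the 3D_E libraries ran widest. The change was 0.37 ± 0.13 in 3D_L against 2D (adjusted p = 0.047) and 0.63 ± 0.13 in 3D_E against 2D (adjusted p = 0.00168). The first of these was lost without any 1 of the 3D_L or 2D libraries or replicate 2 of 3D_E (adjusted p 0.0568 to 0.143). PSMB7 (NCBI gene 378915), the trypsin-like catalytic subunit and the only catalytic subunit analysed here, had 412, 386 and 456 FPKM in the 3D_L libraries, 366, 469.7 and 539.6 in the 3D_E libraries and 383, 409 and 405 in the 2D libraries. Replicate 1 of 3D_E was the lowest of the 9 and replicates 2 and 3 the highest, and no change was called, with 0.07 ± 0.14 in 3D_L against 2D (adjusted p = 0.748) and 0.18 ± 0.14 in 3D_E against 2D (adjusted p = 0.263).

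Several core genes had groups that did not overlap without passing the threshold. In 3D_L against 2D, 8 of 12 core genes had all 3D_L libraries above all 2D libraries, and none had them all below. Over all genes tested the 3D_L libraries lay all above in 34.0% and all below in 28.8%. PSMA7 gave 0.27 ± 0.10 in 3D_L against 2D (adjusted p = 0.0504), PSMB1 0.25 ± 0.09 (adjusted p = 0.0651) and PSMB3 0.24 ± 0.11 (adjusted p = 0.109). In all 12 core genes replicate 3 was the highest of the 3 3D_L libraries, and its median difference from the 2D mean over the core was 0.37, against 0.09 in replicate 1 and 0.11 in replicate 2 of 3D_L. PSMB3 gave 0.25 ± 0.11 in 3D_E against 2D (adjusted p = 0.0632). PSMA1, PSMA3, PSMA4, PSMA6 and PSMB2 lay between -0.12 and 0.22 on the log2 scale in the comparisons with 2D, and none was called.

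The base held both rises and falls. Of its 8 genes, 1 rose and none fell in 3D_L against 2D (median 0.12), 1 rose and 2 fell in 3D_E against 2D (-0.09), and 4 rose and none fell in 3D_L against 3D_E (0.22). That is 12.5%, 37.5% and 50% called, each below the share of all genes, 36.4%, 68.2% and 53.6%. PSMD4 (NCBI gene 100216364), a ubiquitin receptor, had 253, 247 and 252 FPKM in the 3D_L libraries, 238, 339 and 425 in the 3D_E libraries and 204, 196 and 195 in the 2D libraries. The 3D_L and 2D libraries were tight and did not overlap, while the 3D_E libraries ran from just below 3D_L to far above it. PSMD4 rose in 3D_E against 2D by 0.71 ± 0.17 (adjusted p = 0.00467), and its change in 3D_L against 2D was 0.33 ± 0.17 (adjusted p = 0.16). The coefficient of variation of PSMD4 was 1.42% in 3D_L, 28.0% in 3D_E and 2.63% in 2D, and in 3D_E it was the highest of the 37.

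PSMD1 (NCBI gene 424926), a scaffold of the base that also binds the ubiquitin receptor ADRM1, had 213, 215 and 202 FPKM in the 3D_L libraries, 160.0, 142 and 112 in the 3D_E libraries and 149, 174 and 161 in the 2D libraries. Its 3D_L libraries lay above all others, and 3D_E overlapped 2D. PSMD1 was higher in 3D_L than in 3D_E by 0.61 ± 0.13 (adjusted p = 0.00319) and than in 2D by 0.38 ± 0.13 (adjusted p = 0.0438). The change from 2D was lost without any 1 of the 3D_L or 2D libraries or replicate 2 of 3D_E (adjusted p 0.0677 to 0.144). PSMD2 (NCBI gene 425294), the other scaffold, had 184, 181 and 156 FPKM in the 3D_L libraries, 146, 146 and 139.9 in the 3D_E libraries and 154, 157 and 164 in the 2D libraries. Its 3D_L libraries lay above the 3D_E libraries and overlapped 2D. It was higher in 3D_L than in 3D_E by 0.27 ± 0.09 (adjusted p = 0.0311), a call lost without replicate 1 or 2 of 3D_L, replicate 2 or 3 of 3D_E or replicate 1 or 3 of 2D (adjusted p 0.0507 to 0.116).

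Among the 5 ATPases, PSMC6 and PSMC2 fell in 3D_E and the other 3 were not called in any comparison. That is 40% called in 3D_E against 2D, beside 68.2% of all genes. PSMC6 had 202, 208 and 226 FPKM in the 3D_L libraries, 179.5, 154 and 144 in the 3D_E libraries and 209, 231 and 211 in the 2D libraries. Its 3D_E libraries lay below all others, while 3D_L overlapped 2D. PSMC6 fell in 3D_E against 2D by 0.45 ± 0.10 (adjusted p = 0.00326) and was higher in 3D_L than in 3D_E by 0.41 ± 0.10 (adjusted p = 0.00813). PSMC2 had 225, 219.6 and 243 FPKM in the 3D_L libraries, 191, 190.1 and 182 in the 3D_E libraries and 216, 224 and 215 in the 2D libraries. It too was lowest in the 3D_E libraries, and 3D_L overlapped 2D. Its fall in 3D_E against 2D, -0.22 ± 0.08 (adjusted p = 0.0347), was lost without replicate 1 or 2 of 3D_L, replicate 2 or 3 of 3D_E or any 2D library (adjusted p 0.0518 to 0.104). Its difference between 3D_L and 3D_E, 0.29 ± 0.08 (adjusted p = 0.0139), was called without each library in turn. PSMC1, PSMC3 and PSMC5 lay within -0.15 and 0.17 on the log2 scale in the 3 comparisons.

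In the lid, none of the 7 genes with a PSM symbol was called by limma in 3D_L against 2D (median log2 change 0.12), where 36.4% of all genes were called. An unadjusted p under 0.05 was found in limma for 2 of the 7. Over all genes that share is at least the 36.4% called, since an adjusted p is never below the unadjusted one. PSMD6, PSMD7 and PSMD11 were called higher in 3D_L than in 2D under 3 alternatives. These were quantile normalization, library weights and only the 2 groups in the fit, where 34.3%, 67.6% and 55.4% of all genes were called. In 3D_E against 2D, 1 rose and 3 fell (-0.23), and in 3D_L against 3D_E, 4 rose and 1 fell (0.29). That is 57.1% and 71.4% called, beside 68.2% and 53.6% of all genes. The median difference of the lid genes from the 2D mean was -0.004, -0.192 and -0.345 in replicates 1, 2 and 3 of 3D_E. PSMD3 and PSMD7, the lid genes with the highest levels, went opposite ways in 3D_E. PSMD3 (NCBI gene 426133), a structural subunit, had 607, 561 and 610.1 FPKM in the 3D_L libraries, 411, 389.8 and 379.8 in the 3D_E libraries and 613, 611 and 613 in the 2D libraries. The 3D_E libraries lay far below the rest and the 2D libraries differed by under 3 FPKM. PSMD3 fell in 3D_E against 2D by 0.64 ± 0.08 (adjusted p = 9.66e-05) and was higher in 3D_L than in 3D_E by 0.59 ± 0.08 (adjusted p = 3.55e-04). PSMD7 (NCBI gene 415869), the partner of the deubiquitinase PSMD14, had 535, 544 and 618 FPKM in the 3D_L libraries, 714, 756 and 741 in the 3D_E libraries and 492, 471 and 480.1 in the 2D libraries. Its 3 groups did not overlap, with 3D_E highest. PSMD7 rose in 3D_E against 2D by 0.61 ± 0.09 (adjusted p = 2.05e-04) and was lower in 3D_L than in 3D_E by 0.38 ± 0.09 (adjusted p = 0.00605).

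The ratio of PSMD3 to PSMD7 in FPKM, chosen after these values were seen and given with no test, was 1.14, 1.03 and 0.987 in 3D_L, 0.576, 0.515 and 0.513 in 3D_E and 1.25, 1.297 and 1.28 in 2D. Scaling of a library cancels in this ratio. PSMD14 (NCBI gene 424189), the subunit that cuts ubiquitin chains off the substrate, had 248, 254 and 288 FPKM in the 3D_L libraries, 227, 213 and 205 in the 3D_E libraries and 279.7, 269 and 269 in the 2D libraries. Its 3D_E libraries lay below all others. PSMD14 fell in 3D_E against 2D by 0.34 ± 0.09 (adjusted p = 0.00721) and was higher in 3D_L than in 3D_E by 0.29 ± 0.09 (adjusted p = 0.0224). That second call was lost without replicate 3 of 3D_L or replicate 2 of 3D_E (adjusted p 0.0582 to 0.0727).

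The structural lid subunit PSMD13 had 260.1, 271 and 281 FPKM in the 3D_L libraries, 247, 226 and 210.5 in the 3D_E libraries and 274, 265 and 264 in the 2D libraries. The 3D_E libraries lay below the others, and 3D_L overlapped 2D. It fell in 3D_E against 2D by 0.23 ± 0.09 (adjusted p = 0.0386) and was higher in 3D_L than in 3D_E by 0.25 ± 0.09 (adjusted p = 0.0369). Both calls were lost without most single libraries, the first without replicate 1 or 2 of 3D_L, replicate 2 or 3 of 3D_E or any 2D library (adjusted p 0.0566 to 0.113) and the second without any library but replicate 1 of 3D_E (adjusted p 0.0578 to 0.106). PSMD12, also structural, was higher in 3D_L than in 3D_E by 0.35 ± 0.13 (adjusted p = 0.0411), a call likewise lost without any library but replicate 1 of 3D_E (adjusted p 0.055 to 0.116). PSMD6 had 144, 156 and 181 FPKM in the 3D_L libraries, 154, 134 and 109 in the 3D_E libraries and 135, 136 and 129 in the 2D libraries, and replicate 3 was the highest 3D_L library and the lowest 3D_E library. SEM1, the small lid subunit without a PSM symbol, had 57.1, 56.1 and 78.4 FPKM in the 3D_L libraries, 68.5, 94.7 and 103 in the 3D_E libraries and 96.3, 98.7 and 79.99 in the 2D libraries. Its 3D_L libraries lay below all 2D libraries and overlapped those of 3D_E. SEM1 fell in 3D_L against 2D by 0.53 ± 0.18 (adjusted p = 0.0421) and gave -0.46 ± 0.18 in 3D_L against 3D_E (adjusted p = 0.0494), while 3D_E against 2D gave -0.06 ± 0.18 (adjusted p = 0.768). The fall against 2D was lost with no filter, with quantile normalization and with the replicate number as a block. It was also lost without replicate 1 or 2 of 3D_L, replicate 2 of 3D_E or replicate 1 or 2 of 2D (adjusted p 0.0607 to 0.144). The difference between the 3D groups was lost with a pseudocount of 5, no filter, no trend, the replicate number as a block or only those groups in the fit. It was also lost without any library but replicate 3 of 3D_L or replicate 1 of 3D_E (adjusted p 0.0585 to 0.157). With the settings reported, PSMD6 and PSMD11 were not called in any comparison. They gave 0.26 ± 0.13 (adjusted p = 0.155) and 0.20 ± 0.08 (adjusted p = 0.0829) in 3D_L against 2D.

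The activators and the inhibitor of the core split in 3D_E, with 2 higher and 1 lower than in 2D. That is 100% called, beside 68.2% of all genes. PSME3 (NCBI gene 420017), or PA28 gamma, a nuclear activator that opens the core without ubiquitin or ATP, had 141, 146 and 143 FPKM in the 3D_L libraries, 114, 97.1 and 91.9 in the 3D_E libraries and 170.4, 178 and 179 in the 2D libraries. The 3 groups did not overlap, with 2D highest and 3D_E lowest. PSME3 fell in 3D_L against 2D by 0.29 ± 0.09 (adjusted p = 0.0352) and in 3D_E against 2D by 0.80 ± 0.09 (adjusted p = 4.64e-05), and was higher in 3D_L than in 3D_E by 0.51 ± 0.09 (adjusted p = 0.00172). The fall in 3D_L against 2D was lost without any 1 of the 3D_L or 2D libraries or replicate 2 of 3D_E (adjusted p 0.0608 to 0.112). It was also lost with quantile normalization and with the replicate number as a block.

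PSME4, or PA200, a large nuclear activator that caps the core, went the other way at low levels. It had 10.5, 10.4 and 9.36 FPKM in the 3D_L libraries, 10.9, 15.2 and 19.0 in the 3D_E libraries and 8.96, 10.3 and 9.12 in the 2D libraries. Replicate 1 of 3D_E lay close to the other groups and replicates 2 and 3 well above them. PSME4 rose in 3D_E against 2D by 0.59 ± 0.16 (adjusted p = 0.00974), and was lower in 3D_L than in 3D_E by 0.51 ± 0.16 (adjusted p = 0.0262), a call lost without any 3D_L library or replicate 2 or 3 of 3D_E (adjusted p 0.0547 to 0.0805). PSMF1 (NCBI gene 430115), or PI31, first known as an inhibitor of the core and also an adaptor for its transport, had 67.1, 61.6 and 64.4 FPKM in the 3D_L libraries, 79.3, 68.2 and 65.8 in the 3D_E libraries and 49.6, 44.9 and 48.9 in the 2D libraries. All 6 3D libraries lay above the 2D libraries, and the 3D groups overlapped. PSMF1 rose in 3D_L against 2D by 0.42 ± 0.10 (adjusted p = 0.00696) and in 3D_E against 2D by 0.56 ± 0.10 (adjusted p = 5.22e-04), and both calls held without each library in turn. The genes for the other PA28 subunits and for the inducible catalytic subunits were not among the symbols that met the rule, and so were not analysed here.

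The chaperones PSMG1 to PSMG4, which help to build the core, all fell in 3D_E against 2D (median log2 change -0.71), and 3 of the 4 fell in 3D_L against 2D (-0.56), where 32.1% and 16.2% of all genes fell. PSMG1 and PSMG2 form a pair that sets up the alpha ring, and PSMG3 and PSMG4 form a second pair that acts on the same ring. PSMG3 had 34.8, 33.6 and 38.2 FPKM in the 3D_L libraries, 24.3, 32.9 and 36.9 in the 3D_E libraries and 60.7, 58.2 and 54.7 in the 2D libraries. Every 3D library lay below every 2D library, and the 3D groups overlapped. PSMG3 fell by 0.69 ± 0.14 in 3D_L against 2D (adjusted p = 0.004) and by 0.88 ± 0.14 in 3D_E against 2D (adjusted p = 3.28e-04).

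PSMG4 (NCBI gene 420882), its partner, had 30.4, 26.3 and 35.9 FPKM in the 3D_L libraries, 26.0, 28.9 and 37.1 in the 3D_E libraries and 48.6, 51.6 and 47.0 in the 2D libraries. The 3D groups overlapped and both lay below 2D, with changes of -0.66 ± 0.14 in 3D_L against 2D (adjusted p = 0.00596) and -0.68 ± 0.14 in 3D_E against 2D (adjusted p = 0.00219). PSMG2 had 94.2, 98.3 and 111 FPKM in the 3D_L libraries, 116, 93.4 and 84.9 in the 3D_E libraries and 134, 147 and 137 in the 2D libraries. It lay below 2D in all 6 3D libraries, and fell by 0.46 ± 0.12 in 3D_L against 2D (adjusted p = 0.0155) and by 0.51 ± 0.12 in 3D_E against 2D (adjusted p = 0.00409). The first of these was lost without replicate 1 or 2 of 3D_L or replicate 2 of 2D (adjusted p 0.0571 to 0.0662). Between the 3D groups these 3 chaperones were not called, with 0.05 ± 0.12 for PSMG2 (adjusted p = 0.734), 0.19 ± 0.14 for PSMG3 (adjusted p = 0.261) and 0.01 ± 0.14 for PSMG4 (adjusted p = 0.943).

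PSMG1, the partner of PSMG2, differed between the 3D groups. It had 17.9, 16.5 and 20.0 FPKM in the 3D_L libraries, 13.9, 11.6 and 9.34 in the 3D_E libraries and 18.9, 21.2 and 19.9 in the 2D libraries. The 3D_E libraries lay below all others, and 3D_L overlapped 2D. PSMG1 fell in 3D_E against 2D by 0.75 ± 0.14 (adjusted p = 7.22e-04), was higher in 3D_L than in 3D_E by 0.62 ± 0.14 (adjusted p = 0.00401), and was not called in 3D_L against 2D (-0.14 ± 0.14, adjusted p = 0.462). For POMP, the chaperone of the beta ring, which has no PSM symbol, the libraries had 295, 314 and 371 FPKM in the 3D_L libraries, 333, 263 and 221 in the 3D_E libraries and 311, 350.4 and 310.5 in the 2D libraries. The groups overlapped and POMP was not called, with 0.01 ± 0.15 in 3D_L against 2D (adjusted p = 0.974) and -0.27 ± 0.15 in 3D_E against 2D (adjusted p = 0.141).

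Of the 3 chaperones of the base with a PSM symbol, none was called in 3D_L against 2D and 1 fell in 3D_E against 2D. That is 0% and 33.3% called, beside 36.4% and 68.2% of all genes. PAAF1, which also binds base ATPases but has no PSM symbol, rose in both 3D groups and is given with the partners below. PSMD5 (NCBI gene 417125), which holds base ATPases until the cap is complete, had 27.7, 27.8 and 26.4 FPKM in the 3D_L libraries, 24.9, 19.0 and 14.8 in the 3D_E libraries and 24.5, 27.4 and 25.4 in the 2D libraries. Its 3D_E libraries spread widely and replicate 1 overlapped 2D. PSMD5 fell in 3D_E against 2D by 0.41 ± 0.15 (adjusted p = 0.0369), a call lost without any library but replicate 1 of 3D_E (adjusted p 0.0524 to 0.111). It was higher in 3D_L than in 3D_E by 0.49 ± 0.15 (adjusted p = 0.0226), lost without replicate 1 or 2 of 3D_L or replicate 2 of 3D_E (adjusted p 0.0631 to 0.0648). PSMD9, another of these chaperones, gave 0.28 ± 0.12 in 3D_E against 2D (adjusted p = 0.0618). PSMD10, also called gankyrin, averaged 92.4 ± 8.51 FPKM in 3D_L, 93.6 ± 6.41 in 3D_E and 93.0 ± 4.68 in 2D (SD, n = 3 each), and its change lay between -0.02 and 0.01 in the 3 comparisons.

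**Figure D4:**
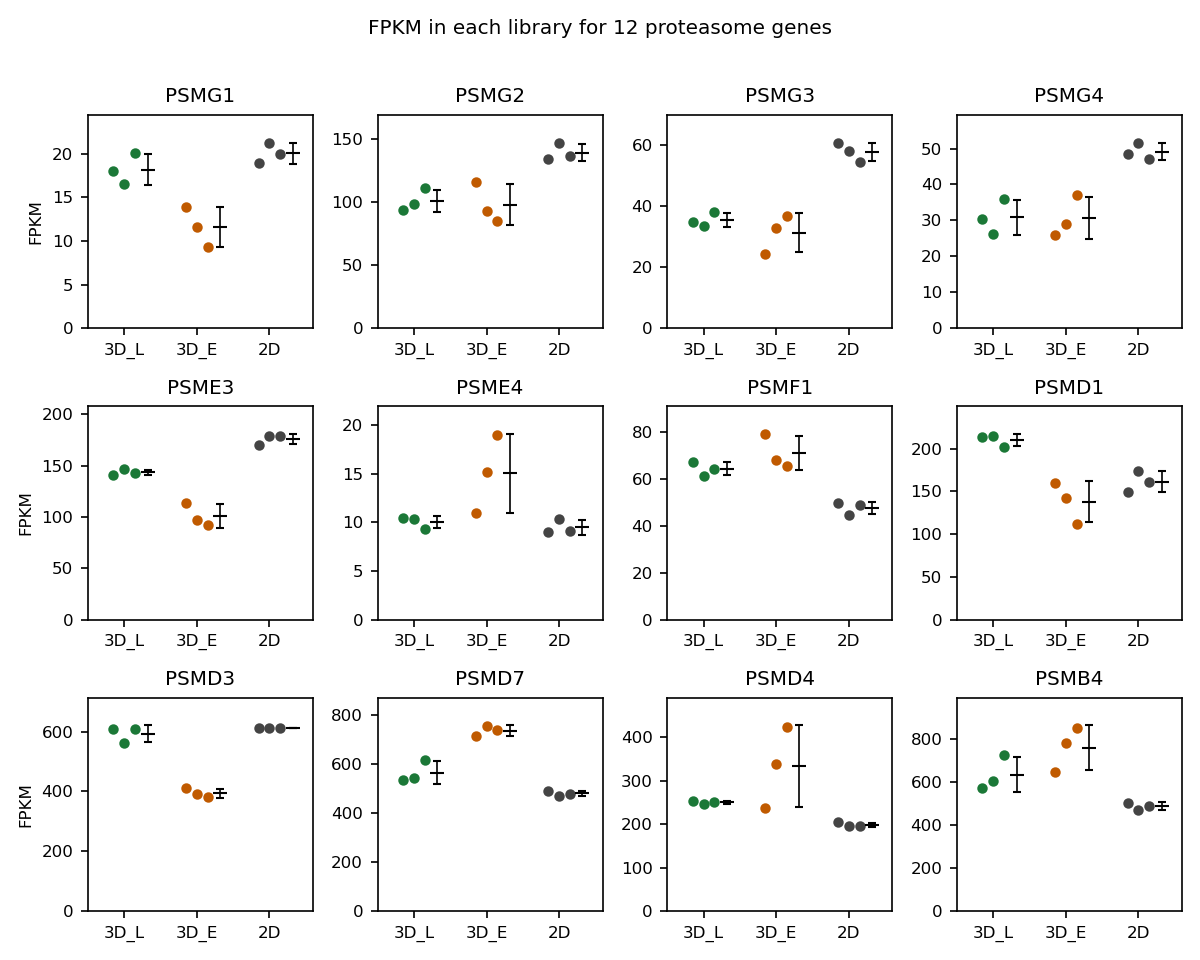
FPKM (linear axis from 0) of 12 proteasome genes in each library, with mean ± SD of each group at the side (n = 3). PSMG2, PSMG3 and PSMG4 lie below 2D in both 3D groups and PSMF1 and PSMB4 above it, while PSMD3 and PSMG1 lie lower in 3D_E than in both other groups, and PSME4 and PSMD4 spread widely in 3D_E.

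The genes of proteins that bind the proteasome went both ways. Of 20 partners without a PSM symbol, 4 rose and 3 fell in 3D_L against 2D, 6 rose and 9 fell in 3D_E against 2D, and 8 rose and 5 fell in 3D_L against 3D_E, with median log2 changes of 0.03, -0.24 and 0.27. That is 35%, 75% and 65% called, beside 36.4%, 68.2% and 53.6% of all genes. PITHD1, which binds the proteasome in human cells, had 0, 0 and 4.15 FPKM in the 3D_L libraries, 6.46, 20.7 and 34.2 in the 3D_E libraries and 0.27, 0.27 and 0 in the 2D libraries. It was listed at or near 0 in all libraries but replicate 3 of 3D_L and those of 3D_E, which spread widely. PITHD1 rose in 3D_E against 2D by 3.93 ± 0.67 (adjusted p = 5.32e-04) and gave -3.37 ± 0.67 in 3D_L against 3D_E (adjusted p = 0.0024). The first of these was 6.13 with a pseudocount of 0.1 and 2.13 with one of 5. HSPB1, a small heat shock protein, had 200.4, 196 and 258 FPKM in the 3D_L libraries, 369, 535 and 729.9 in the 3D_E libraries and 170.4, 142 and 155 in the 2D libraries. The 3 groups did not overlap, with 3D_E highest. HSPB1 rose in 3D_E against 2D by 1.75 ± 0.22 (adjusted p = 6.74e-05), and its change in 3D_L against 2D was 0.48 ± 0.22 (adjusted p = 0.116). ADRM1, the ubiquitin receptor docked on PSMD1, had 163, 164 and 177 FPKM in the 3D_L libraries, 171, 183 and 178 in the 3D_E libraries and 121, 119 and 122 in the 2D libraries. All 3D libraries lay above 2D, by 0.48 ± 0.08 in 3D_L (adjusted p = 0.00127) and 0.55 ± 0.08 in 3D_E (adjusted p = 1.69e-04). UCHL5, a deubiquitinase that ADRM1 brings to the proteasome, had 86.2, 83.0 and 99.5 FPKM in the 3D_L libraries, 66.7, 59.7 and 59.0 in the 3D_E libraries and 116, 122 and 112 in the 2D libraries. The 3 groups did not overlap, with 3D_E lowest, and UCHL5 fell by 0.38 in 3D_L (adjusted p = 0.012) and by 0.91 in 3D_E (adjusted p = 2.19e-05) against 2D.

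USP14, the deubiquitinase held by PSMD2, had 113, 121 and 135 FPKM in the 3D_L libraries, 72.6, 84.9 and 86.8 in the 3D_E libraries and 151, 154 and 148 in the 2D libraries. Its groups did not overlap either, with 3D_E lowest. USP14 fell by 0.30 in 3D_L against 2D (adjusted p = 0.0408) and by 0.89 in 3D_E against 2D (adjusted p = 3.48e-05). In 3D_L against 2D the UCHL5 call was lost without replicate 1 or 2 of 3D_L or replicate 2 of 2D (adjusted p 0.0518 to 0.058), and the USP14 call without replicate 1 or 2 of 3D_L, replicate 2 of 3D_E or any 2D library (adjusted p 0.0654 to 0.155). UCHL5 and USP14 were chosen after their values were seen. In 3D_L against 3D_E, UCHL5 gave 0.53 (adjusted p = 0.00155) and USP14 gave 0.59 (adjusted p = 0.00107). PAAF1, which binds free base ATPases and keeps the cap from the core, had 30.0, 28.1 and 31.7 FPKM in the 3D_L libraries, 41.5, 52.8 and 58.4 in the 3D_E libraries and 16.6, 16.0 and 15.6 in the 2D libraries. ZFAND5, which stimulates proteasomes in mammalian muscle, had 24.4, 23.8 and 27.1 FPKM in the 3D_L libraries, 47.4, 51.1 and 45.1 in the 3D_E libraries and 17.1, 18.2 and 15.5 in the 2D libraries. In both genes the 3 groups did not overlap, with 3D_E highest and 2D lowest. They rose in 3D_L against 2D, PAAF1 by 0.86 (adjusted p = 4.79e-04) and ZFAND5 by 0.54 (adjusted p = 0.00187), and in 3D_E against 2D, PAAF1 by 1.59 (adjusted p = 2.19e-06) and ZFAND5 by 1.45 (adjusted p = 8.44e-07).

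Ubiquitin itself was higher. UBB (NCBI gene 101747587), a polyubiquitin gene, had 2251, 2054 and 2379.9 FPKM in the 3D_L libraries, 2811, 3026 and 3265 in the 3D_E libraries and 1450.4, 1587 and 1493 in the 2D libraries. The groups did not overlap, and UBB rose by 0.56 in 3D_L (adjusted p = 0.00283) and by 1.004 in 3D_E (adjusted p = 2.17e-05) against 2D. Ubiquitin genes share near-identical repeats and how shared reads were assigned is not given, so this value is less certain. Of 34 ubiquitin genes and conjugating enzymes, 3 rose and 2 fell in 3D_L against 2D and 7 rose and 14 fell in 3D_E against 2D, which is 14.7% and 61.8% called, beside 36.4% and 68.2% of all genes. The largest change there was that of UBE2C, the conjugating enzyme of the anaphase-promoting complex, which fell in 3D_E against 2D by 2.01 ± 0.16 (adjusted p = 3.29e-06). VCP, the ATPase that delivers unfolded substrates to the proteasome, had 185, 184 and 186 FPKM in the 3D_L libraries, 161, 164 and 162 in the 3D_E libraries and 147, 142 and 152 in the 2D libraries. The 3 groups did not overlap, with 3D_L highest. VCP rose in 3D_L against 2D by 0.33 ± 0.07 (adjusted p = 0.00715), and its change in 3D_E against 2D was 0.14 ± 0.07 (adjusted p = 0.119). Of 26 genes of VCP and its cofactors, 10 rose and 2 fell in 3D_L and 14 rose and 3 fell in 3D_E against 2D, or 46.2% and 65.4% called, beside the same 36.4% and 68.2% of all genes. DERL3, a protein of the endoplasmic reticulum degradation channel, had the largest change of these, 2.10 ± 0.13 in 3D_E against 2D (adjusted p = 4.54e-07). Of 46 deubiquitinases tested, 8 rose and 4 fell in 3D_L and 20 rose and 8 fell in 3D_E against 2D, or 26.1% and 60.9% called. OTUD6B had the largest change of these, -1.84 ± 0.22 in 3D_E against 2D (adjusted p = 5.68e-05).

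**Figure D5:**
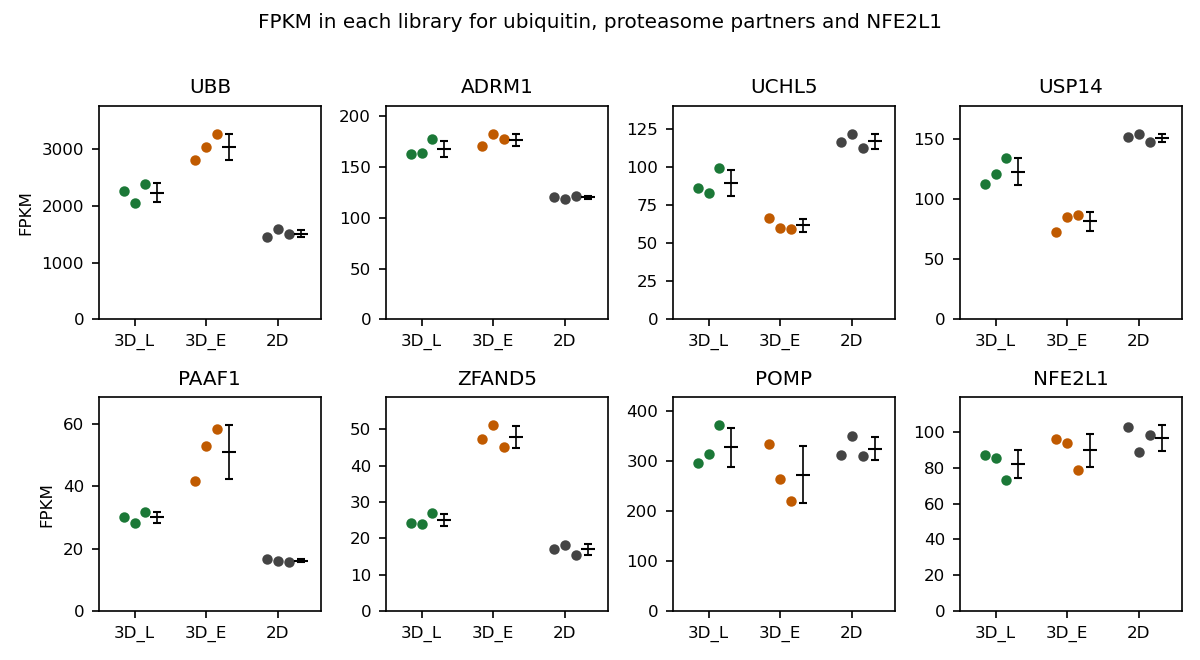
FPKM (linear axis from 0) of UBB, 6 proteasome partners and the transcription factor NFE2L1 in each library, with mean ± SD of each group at the side (n = 3). UBB, ADRM1, PAAF1 and ZFAND5 lie above 2D and UCHL5 and USP14 below it in all 6 3D libraries, while POMP overlaps between the groups.

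NFE2L1, the transcription factor that raises proteasome genes when the protease is impaired, had 87.3, 85.4 and 73.0 FPKM in the 3D_L libraries, 96.2, 93.8 and 79.0 in the 3D_E libraries and 103, 88.8 and 98.2 in the 2D libraries. The 3D_L libraries lay below the 2D libraries, and 3D_E overlapped both. It was not called, with -0.24 ± 0.11 in 3D_L against 2D (adjusted p = 0.126) and -0.11 ± 0.11 in 3D_E against 2D (adjusted p = 0.404). NFE2L2, a related factor of the oxidative stress response, had 73.5, 70.9 and 73.2 FPKM in the 3D_L libraries, 104, 82.5 and 63.3 in the 3D_E libraries and 53.7, 56.1 and 56.0 in the 2D libraries. Both 3D groups lay above 2D, and 3D_E spread widely. It rose in 3D_E against 2D by 0.55 (adjusted p = 0.00797) and gave 0.39 in 3D_L against 2D (adjusted p = 0.0685). MAFK, a small Maf partner of both, fell by 0.93 in 3D_L (adjusted p = 1.82e-04) and by 1.41 in 3D_E (adjusted p = 2.91e-06) against 2D. The small Mafs did not move as one. MAFF fell by 0.43 in 3D_L (adjusted p = 0.00554) and rose by 0.27 in 3D_E (adjusted p = 0.0264) against 2D. That rise was lost without replicate 2 or 3 of 3D_E or 2D. It was also lost with median of ratios scaling and with the replicate number as a block. MAFG was not called in 3D_L and rose by 0.56 in 3D_E (adjusted p = 7.94e-04) against 2D. It was chosen after its values were seen and not followed under the alternatives. Of 12 such regulators, 2 rose and 2 fell in 3D_L and 8 rose and 1 fell in 3D_E against 2D, or 33.3% and 75% called, beside 36.4% and 68.2% of all genes.

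The lid shares its architecture with the COP9 signalosome, which trims NEDD8 from ubiquitin ligases, and with the translation factor eIF3. In 3D_E against 2D, 1 of 9 COP9 genes rose and 7 fell (median -0.62), and none of 11 eIF3 genes rose and 7 fell (-0.31), beside 1 and 3 of the 7 lid genes with a PSM symbol (-0.23). That is 88.9% of the COP9 genes and 63.6% of the eIF3 genes called, beside 68.2% of all genes, of which 32.1% fell. In 3D_L against 2D, 3 COP9 genes and 2 eIF3 genes fell and none rose, or 33.3% and 18.2% called, beside 36.4% of all genes. Of the lid, SEM1 fell and the 7 with a PSM symbol were not called with the settings reported. In 3D_L against 3D_E, 6 COP9 genes, 4 eIF3 genes and 4 of the 7 lid genes rose, while 27.2% of all genes did. COPS7B and EIF3B had the largest changes of their complexes, both in 3D_E against 2D, with -0.99 ± 0.11 (adjusted p = 3.57e-05) and -0.998 ± 0.15 (adjusted p = 1.86e-04). COPS3, a COP9 subunit, had 141, 145 and 159 FPKM in the 3D_L libraries, 91.7, 93.1 and 90.7 in the 3D_E libraries and 170.4, 181 and 172 in the 2D libraries, with 3D_E far below both other groups. In class I antigen presentation, which uses peptides cut by the proteasome, none of 14 genes rose and 3 fell in 3D_L, and 3 rose and 6 fell in 3D_E, against 2D. That is 21.4% and 64.3% called, beside 36.4% and 68.2% of all genes.

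PSMC3IP (NCBI gene 772119), which shares only the letters of the family, had 12.3, 11.8 and 15.2 FPKM in the 3D_L libraries, 6.81, 10.2 and 12.4 in the 3D_E libraries and 14.3, 13.4 and 12.3 in the 2D libraries and was not called in any comparison, with -0.44 ± 0.18 in 3D_E against 2D (adjusted p = 0.0519).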

How the data were processed

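The authors deposited FPKM values with 2 decimals for 9 libraries of polyadenylated RNA, per the file headers and the labels' protocols. HISAT2 2.0.5, R 3.4.2, DESeq2 and GRCg6a are named, with no role, per the submitters' processing notes. The program behind FPKM and the handling of shared reads are not stated in the sources used here. The table also has 82 unnamed columns and 1 line without a gene, all left out.

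A minimum of 1 FPKM in 3 or more libraries left 10436 genes for the test, the 37 proteasome genes among them. Limma 3.58.1 (R 4.3.3) fitted log2(FPKM + 1) over the 9 libraries together, with a mean-variance trend and 6 residual degrees of freedom. Tests were 2-sided with Benjamini-Hochberg adjustment over all genes tested per comparison. The steps were run on simulated data with planted changes of 1 and 2 on the log2 scale. These are larger than any change of the proteasome genes, so that run does not cover changes of their size. The fit shares 1 spread among groups although 3D_E varied more. The members and the 13 gene lists were chosen with earlier results of these data known. Named genes were all proteasome genes, POMP, NFE2L1, NFE2L2, UBB and VCP, and others from the 4 called genes with the largest change per list and comparison, of which the text gives only some. UCHL5, USP14, MAFG, the marker genes and the ratio of PSMD3 to PSMD7 fall outside it. All 37 gene numbers were found in the RefSeq table of another assembly with the same symbol, so no coordinates are printed. Alternatives were the pseudocount, filter, scaling, groups in the fit, trend, library weights, replicate block and each library left out.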

Additional observations from a re-analysis of the deposited data

How the results depend on the processing

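Rises in 3D_L against 2D, 4 as reported, numbered 2 with no filter or median of ratios scaling, 12 with quantile normalization or only the 2 groups compared in the fit, 14 with library weights, and 2 to 10 with a library left out. Falls there numbered 5 with library weights and 2 to 4 with a library left out, against 4. Rises in 3D_E against 2D numbered 8 with quantile normalization, 15 with library weights and 5 to 9 with a library left out, against 5. In the same comparison falls numbered 16 with library weights and 8 to 14 with a library left out, against 12. In 3D_L against 3D_E, rises numbered 5 with only the 2 groups compared, 18 with library weights and 6 to 13 with a library left out, against 12. Its falls numbered 1 with only the 2 groups, 9 with library weights and 1 to 6 with a library left out, against 2. The cause was not tested. With library weights, replicate 2 of 3D_E weighed 10.6, and replicates 1 and 3 of 3D_E weighed 0.147 and 0.17. The 3D_E group thus rested mostly on a single library in that fit. A fit of only the 2 groups compared ended the calls of PSMC2, PSMD13 and PSMD5 in 3D_E against 2D and of PSMA2, PSMC2, PSMD2, PSMD12, PSMD13, PSMD14, PSME4 and PSMD5 in 3D_L against 3D_E, and no filter or median of ratios scaling ended those of PSMB4 and PSMD1 in 3D_L against 2D and PSMD12 in 3D_L against 3D_E. No filter also ended that of PSMD5 in 3D_E against 2D. Quantile normalization ended those of PSME3 in 3D_L against 2D, PSMC2 and PSMD13 in 3D_E against 2D, and PSMD2 and PSMD12 in 3D_L against 3D_E. Of the other genes with values above, it ended the calls of SEM1, USP14 and COPS3 in 3D_L against 2D and of UBB in 3D_L against 3D_E. No direction of a called gene reversed. Read depth is unknown, so counting error could not be set apart from the spread between libraries.

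The replicate numbers are shared by the groups, but same-numbered libraries deviated together in 1 of 9 pairs at a correlation over 0.1 (-0.404 to 0.182), so the numbers were not taken to pair them. With the replicate number as a block, 3 proteasome genes rose and 3 fell in 3D_L against 2D, 5 rose and 9 fell in 3D_E against 2D, and 7 rose and 2 fell in 3D_L against 3D_E.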
